A study of Homo sapiens with 4 samples.

Results

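Aminoacyl-tRNA synthetases are the enzymes that load each amino acid onto its transfer RNA before it can be used by the ribosome. The genes described here are the 35 synthetase genes on a given list, of which 19 encode cytosolic and 16 encode mitochondrial enzymes. They were chosen by name and not by a cut on a measured value, but with earlier results of these data known. Each matched 1 of the 60279 genes in the count tables, and all 35 were among the 14269 genes with a mean of at least 1 CPM (the usual read count of a gene relative to all reads in genes of its library) over the libraries, the minimum for a comparison.

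RNA was sequenced from SUM159, an established triple-negative breast cancer line, as 4 libraries: 1 of cells left untreated, 1 of cells given palbociclib, 1 given indisulam and 1 given both. Palbociclib blocks CDK4 and CDK6, kinases that drive entry into the cell cycle, and indisulam brings the splicing factor RBM39 to the DCAF15 ubiquitin ligase, which leads to degradation of RBM39. The library labels give 0.5 µM palbociclib and 2 µM indisulam for 10 days, whereas the text on the series gives 2 µM palbociclib and 3 µM indisulam for 16 h in technical duplicates. Both treatments appear in the paper, each for a separate RNA-seq experiment on this line. Its gene set comparison used the doses and time on the labels, and its splicing experiment used those of the series text. Dose and time thus rest on the labels, which are followed here. Why the series text differs, and whether technical duplicates were pooled, is not given in the sources used here. All 4 cultures were of the same line and medium, with insulin and hydrocortisone, and the labels name no vehicle for the untreated cells.

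The libraries held 12555908 to 16712174 reads in genes. Of the receptor genes behind the triple-negative label, the oestrogen receptor gene ESR1 had 4 to 16 reads and the progesterone receptor gene PGR 0 to 3 reads per library. The HER2 receptor gene ERBB2 had more, 1628 to 1831 reads. VIM, the mesenchymal filament gene, had 36565 to 57726 reads. The epithelial genes EPCAM and CDH1 had 5 to 28 reads, and the simple keratin gene KRT18 had 2038 to 3573. Of 3 markers of other cells, the T cell gene CD3E had no read in any library, the leukocyte gene PTPRC had 153 to 292 reads and the endothelial gene PECAM1 had 191 to 519. The 3 markers together reached 27.4 CPM in the untreated library, 53.4 CPM with palbociclib, 35 CPM with indisulam and 31.5 CPM with the combination, and their part in the differences below was not tested.

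There were no replicates, so no p-value is given and no difference has a replicate check. Each log2 ratio is of counts scaled to the library totals with 1 scaled count added, and the range in brackets after it is its 95% interval from counting error alone. To be called changed, a gene needed a ratio of 2-fold or more with a ratio of 1 outside this range. A looser call used 1.5-fold. As a guide to the noise between libraries, the spread over genes of the departure from additivity (the log2 ratio of the combination to untreated minus those of both single drugs) was used. The departure is the difference of 2 log2 ratios that share no library, so its spread (a scaled median absolute deviation) was divided by the square root of 2 to give a noise bound for a single log2 ratio. The bound was 0.28 for genes of at least 100 CPM, 0.26 from 20 to 100 CPM, 0.37 from 5 to 20 CPM and 0.62 from 1 to 5 CPM.

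Cytosolic synthetases charge the tRNAs used for the bulk of cellular protein, and the mitochondrial enzymes, also encoded in the nucleus, serve the few proteins made inside the organelle. The enzymes fall into classes I and II by the fold of their catalytic domain, and several cytosolic ones sit together in a multisynthetase complex. Uncharged tRNA activates the kinase GCN2 (EIF2AK4), which leads to translation of the transcription factor ATF4, and ATF4 with C/EBP partners is known to act on many cytosolic synthetase genes through C/EBP-ATF response elements.

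The core of this element, TGATGNAA, was looked for on both strands of the promoter windows in a RefSeq table for GRCh38.p14, each 250 bases before and 50 after a transcription start. Of the 35 genes, 30 were in the table, and LARS1, VARS1, YARS1, AARS2 and VARS2 were not. The core was present for 7 of the 16 cytosolic genes in the table and for 1 of the 14 mitochondrial genes, and 4.46% of all 27305 genes in the table have it. The matches are printed below with 10 bases on each side, 5′ to 3′ in the orientation of the core, which is in capitals, because the same genes recur in the comparisons that follow. Positions are counted from the first transcribed base as 1, with negative numbers upstream.
AARS1, chr16:70289676-70289703, plus strand, core at -187 to -180: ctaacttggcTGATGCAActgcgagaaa
CARS1, chr11:3057408-3057435, plus strand, core at -2 to 6: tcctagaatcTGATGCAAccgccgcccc
GARS1, chr7:30594835-30594862, minus strand, core at -33 to -26: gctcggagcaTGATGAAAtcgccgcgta
IARS1, chr9:92293693-92293720, plus strand, core at -13 to -6: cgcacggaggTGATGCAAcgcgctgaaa
MARS1, chr12:57488054-57488081, minus strand, core at -4 to 4: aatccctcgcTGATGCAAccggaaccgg
NARS1, chr18:57621805-57621832, minus strand, core at 15 to 22: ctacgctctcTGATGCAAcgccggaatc
TARS1, chr5:33440957-33440984, minus strand, core at 3 to 10: ctggaccagcTGATGCAAtcgaaaggcg
YARS2, chr12:32756077-32756104, minus strand, core at -197 to -190: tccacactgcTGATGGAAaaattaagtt

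All of these but GARS1 and YARS2 read TGATGCAA, and all but AARS1 and YARS2 lie within 50 bases of the start. A match is a string of letters in a window, not a measured binding site. The E-box CACGTG was found for 1 cytosolic gene (IARS1) and 3 mitochondrial genes (CARS2, EARS2 and MARS2), beside 8.77% of all genes in the table. The interferon response core GAAANNGAA was found for 3 cytosolic genes (GARS1, IARS1 and WARS1) and 1 mitochondrial gene (EARS2), beside 9.86% of all genes. WARS1 encodes the tryptophan enzyme, known as an interferon-induced gene, and its match is shown for that reason.
WARS1, chr14:100375384-100375412, minus strand, core at -55 to -47: tttcagaaggGAAACTGAAagaaagaggg

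Cytosolic synthetase transcripts were more abundant per length than mitochondrial ones in every library. The median level, as CPM divided by the kilobases of annotated exon (RPKM), was 23.2 over the cytosolic genes and 3.38 over the mitochondrial genes in the untreated library. The cytosolic median was 16.4 RPKM with palbociclib, 21.6 with indisulam and 21.9 with the combination. The mitochondrial median was 4.23, 3.75 and 3.70 RPKM in the same order. For 13 amino acids there is 1 gene for each compartment, and the cytosolic gene was the higher of the pair for 11 of them in all 4 libraries. HARS1 and IARS1 were the exceptions, at 0.474 and 0.331 times the RPKM of HARS2 and IARS2 in the untreated library.

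The highest levels in the untreated library were 69.6 RPKM for EPRS1, which joins the glutamate and proline enzymes in 1 protein, 62.4 RPKM for the glutamine enzyme gene QARS1 and 62.4 RPKM for the threonine enzyme gene TARS1. The order at the top differed between libraries. QARS1 was highest with palbociclib at 54.8 RPKM, and TARS1 was highest with indisulam at 76.8 RPKM and with the combination at 89.9 RPKM. The lowest levels in the untreated library were in mitochondrial genes, at 0.771 RPKM for SARS2, 1.24 for NARS2 and 2.32 for FARS2. Exon length here is the union over annotated transcripts, which spans more than any single transcript and so lowers the level of genes with many isoforms. The order depends on this length. With the longest transcript as length, QARS1 was highest in the untreated library at 120 RPKM. TARS1 was then at 99.3, SARS1 at 94.9 and EPRS1 at 76.2 RPKM. Among low genes, SARS2 was still lowest at 1.24 RPKM, but MARS2 at 2.34 lay below FARS2 at 2.89 and NARS2 at 3.76.

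**Figure D1:**
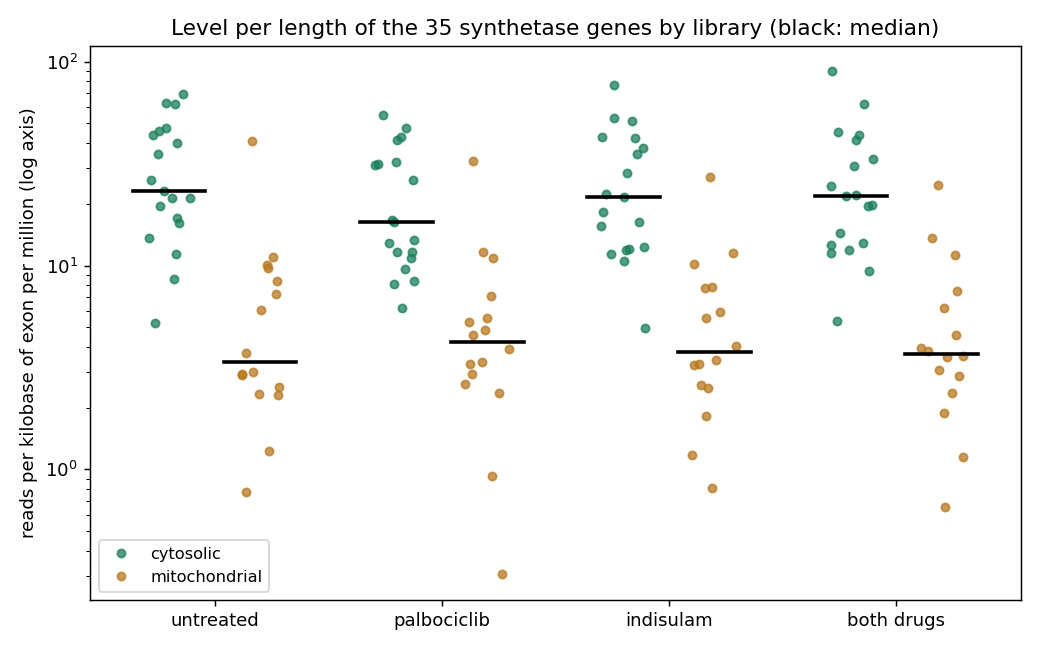
Level per length of each of the 35 synthetase genes in the 4 libraries, in RPKM on a log axis, with cytosolic genes in green, mitochondrial genes in brown and medians as black lines. The cytosolic median was 23.2 in the untreated library and 16.4 with palbociclib, while the mitochondrial medians lay between 3.38 and 4.23.

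With palbociclib alone, cytosolic synthetase transcripts were lower almost throughout, and mitochondrial ones moved both ways. The 19 cytosolic genes together took 3797 CPM of the untreated library and 2682 CPM of the palbociclib library. Their median log2 ratio was -0.38, with 18 of 19 below 0, beside a median of -0.02 and 51.7% below 0 over all tested genes. The one gene above 0 was HARS1, the histidine enzyme, at 0.24 (0.12 to 0.37). The mitochondrial genes had a median of -0.06, with 8 above and 8 below 0. Between libraries of whole cultures, less RNA per cell and fewer cells with the RNA cannot be told apart.

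Few of these shifts reached 2-fold. AARS1, SARS2 and VARS2 were called lower, 3 of 35 beside 4.89% of all tested genes, and none was called higher, beside 5.85%. At 1.5-fold, 10 of 35 were lower, beside 12.2% of all tested genes. They were AARS1, CARS1, EPRS1, GARS1, MARS1, SARS1 and YARS1 of the cytosolic genes and SARS2, TARS2 and VARS2 of the mitochondrial ones. Only MARS2 was higher at 1.5-fold, beside 12.6% of all tested genes.

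With indisulam alone, the shift was smaller and uneven. No synthetase gene was called changed at 2-fold, where 8.39% of all tested genes were called higher and 6.69% lower. At 1.5-fold, 8 of 35 were lower, beside 14.2% of all tested genes, and none was higher, beside 17.2%. These were AARS1, CARS1, EPRS1, GARS1 and QARS1 of the cytosolic genes and IARS2, TARS2 and VARS2 of the mitochondrial genes. The median log2 ratio was -0.14 over the cytosolic and -0.05 over the mitochondrial genes, beside 0.06 over all tested genes. FARSB, which encodes a subunit of the phenylalanine enzyme, had the highest cytosolic ratio, 0.48 (0.35 to 0.61), and the other subunit gene, FARSA, had 0.11.

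With the combination, QARS1, TARS2 and VARS2 were called lower than in the untreated library, 3 of 35 beside 10.5% of all tested genes. None was called higher, beside 12.9%. At 1.5-fold, AARS1, CARS1, EPRS1 and IARS2 joined them for 7 lower, beside 19.4% of all tested genes, and CARS2 and MARS2 were higher, beside 23.1%. The 19 cytosolic genes together took 3255 CPM, against 3231 CPM with indisulam alone. The median log2 ratio to untreated was -0.19 over the cytosolic and -0.06 over the mitochondrial genes, beside 0.05 over all tested genes. All 3 comparisons above share the untreated library.

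**Figure D2:**
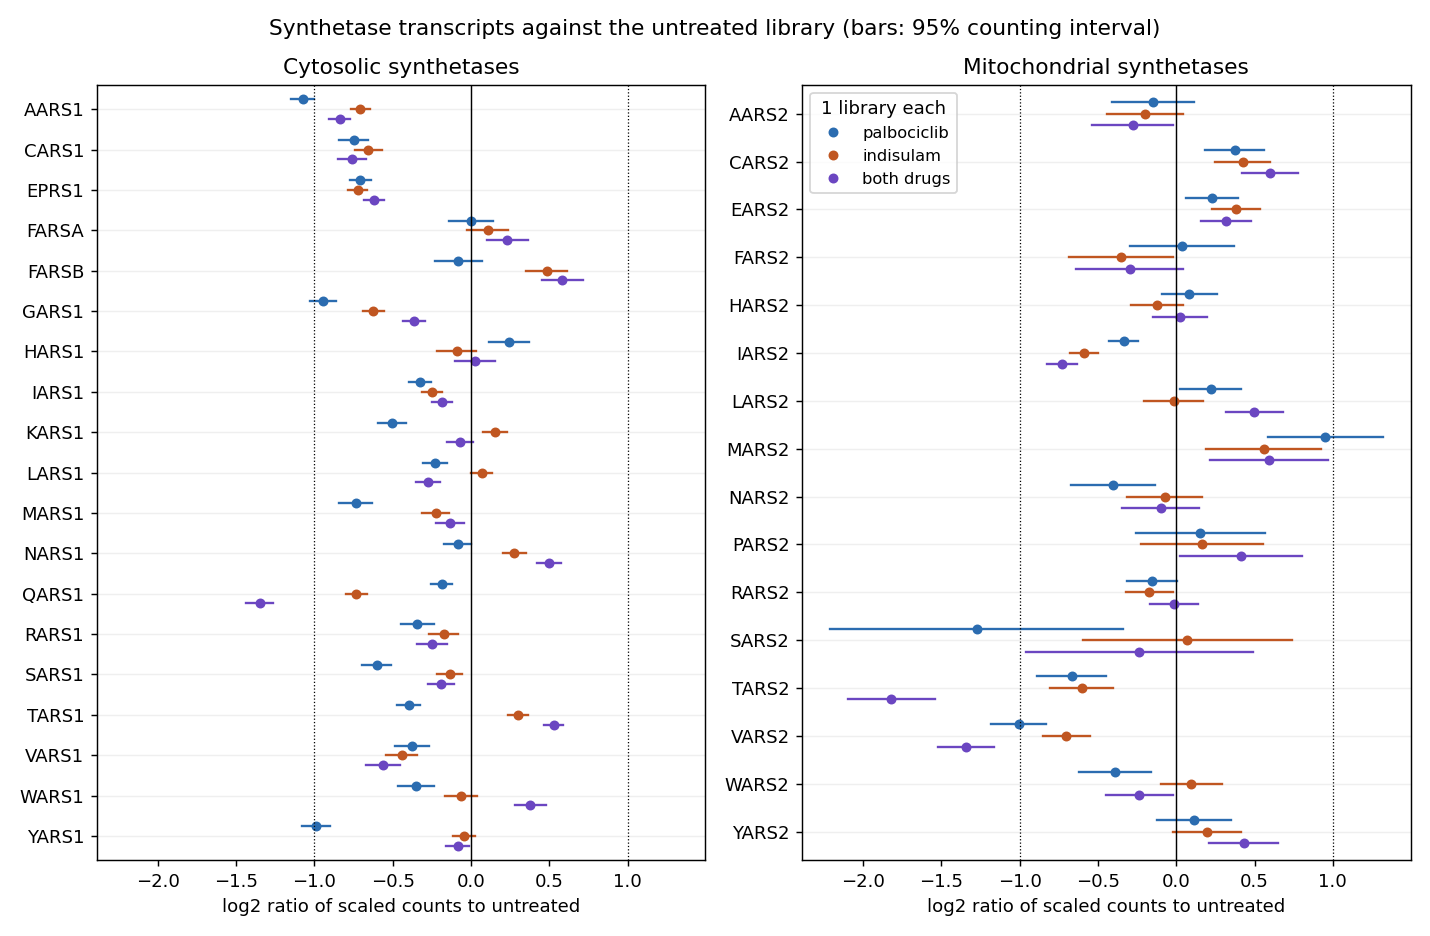
Log2 ratio of scaled counts to the untreated library for each cytosolic gene (left) and mitochondrial gene (right) with palbociclib, indisulam or both drugs, 1 library each; bars are 95% counting intervals and dotted lines mark 2-fold. The lowest points are TARS2 at -1.82 and QARS1 at -1.35 with both drugs, and AARS1, GARS1 and YARS1 are lower with palbociclib alone than with both drugs.

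Adding indisulam to palbociclib was accompanied by higher levels of most cytosolic synthetase transcripts. Against palbociclib alone, the cytosolic median in the combination was 0.24, with 14 of 19 above 0, beside 0.07 over all tested genes, of which 45.1% were below 0. With TMM factors (a trimmed mean over genes) in place of the library totals it was 0.14, with 12 of 19 above 0, beside -0.03 over all tested genes. The mitochondrial median was 0.11. SARS2 was the gene called higher, 1 of 35 beside 9.56% of all tested genes, a call that was lost with each of 3 other scalings (log2 ratios of 0.95 to 0.99), and QARS1 and TARS2 were called lower, beside 7.38%. At 1.5-fold, FARSB, MARS1, TARS1, WARS1, YARS1 and SARS2 were higher, 6 of 35 beside 18.4% of all tested genes. QARS1 and TARS2 were again the 2 lower genes at that fold, beside 14.5%.

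Adding palbociclib to indisulam was accompanied by little change in this gene family. TARS2 was the gene called lower, 1 of 35 beside 3.15% of all tested genes, and none was called higher, beside 5.04%. At 1.5-fold, QARS1, TARS2 and VARS2 were lower, beside 10.2% of all tested genes, and none was higher, beside 12.0%. The medians were 0.07 over the cytosolic and 0.00 over the mitochondrial genes, beside -0.01 over all tested genes. Over the 5 comparisons, every call of a synthetase gene at 2-fold was downward but that of SARS2 against palbociclib, which rests on 12 reads and was lost with the other scalings.

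The palbociclib ratio thus differed by whether indisulam was present. The ratio of palbociclib to untreated and that of the combination to indisulam share no library, and for 16 of 19 cytosolic genes the second was above the first. The same held for 12 of 16 mitochondrial genes. The departure from additivity is the second of these ratios minus the first, so it is above 0 for the same 16 of 19 and 12 of 16 genes. It had a median of 0.39 over the cytosolic genes, beside 0.01 over all tested genes, of which 49.5% were below 0. Over the mitochondrial genes the median was 0.08.

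GARS1, the glycine enzyme gene, was the 1 gene of 35 with a departure called higher at 2-fold, beside 3.93% of all tested genes, and none was called lower, beside 3.84%. At 1.5-fold, 8 of 35 were higher, beside 9.17% of all tested genes, and all 8 were cytosolic. They were AARS1, CARS1, EPRS1, GARS1, MARS1, TARS1, WARS1 and YARS1. MARS2 was the 1 lower gene at 1.5-fold, beside 9.65% of all tested genes. These departures are set by the same 4 libraries as the ratios above, and 1 library that stood apart would move every gene's departure.

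**Figure D3:**
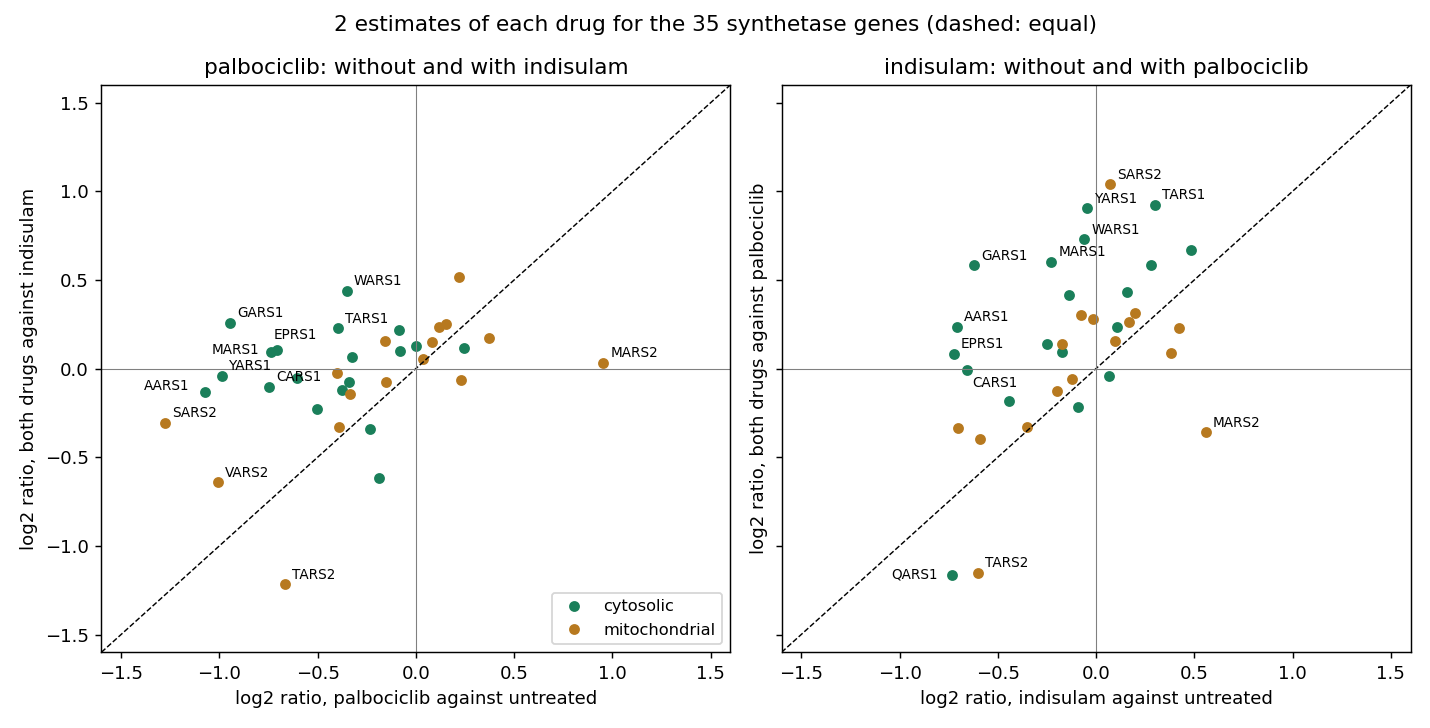
Log2 ratios of each synthetase gene for palbociclib (left) and indisulam (right), without the other drug on the horizontal axis and with it on the vertical axis; the dashed line marks equal values. In the left panel 16 of 19 cytosolic genes (green) lie above the line, GARS1 farthest, while TARS2 lies low on both axes in both panels.

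Members of the family lower by at least 1.5-fold in both estimates of a drug were few. For palbociclib they were TARS2 and VARS2, 2 of 35 beside 4.48% of all tested genes. For indisulam they were QARS1 and TARS2, 2 of 35 beside 8.17%. None was higher in both estimates of either drug, beside 5.20% of all tested genes for palbociclib and 10.4% for indisulam.

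TARS2, which encodes the mitochondrial threonine enzyme (chr1:150487414-150507602, plus strand, GRCh38), had the lowest ratio of the family. Its reads numbered 425 untreated, 270 with palbociclib, 372 with indisulam and 137 with the combination, or 33.8, 21.3, 22.3 and 9.54 CPM. The single drugs gave similar levels and the combination a lower one. Against untreated cells the ratio on the log2 scale was -0.67 (-0.89 to -0.45) for palbociclib and -0.60 (-0.80 to -0.40) for indisulam. For the combination it was -1.82 (-2.1 to -1.54), which is 3.53-fold lower and 6.95 times the noise bound. Against palbociclib the combination was 2.22-fold lower and against indisulam 2.32-fold lower. Its cytosolic counterpart TARS1 had a log2 ratio of 0.53 (0.47 to 0.59) with the combination, so that TARS1 was 7.41 times TARS2 per length in the untreated library and 37.9 times in the combination library.

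QARS1 (chr3:49095932-49105130, minus strand), whose product loads glutamine and is a member of the multisynthetase complex, had 3683 reads untreated, 3272 with palbociclib, 2952 with indisulam and 1651 with the combination. Its level was 293, 258, 177 and 115 CPM in that order, lower in both libraries with indisulam than in both without. Indisulam gave a log2 ratio of -0.73 (-0.80 to -0.66) without palbociclib and of -1.16 (-1.25 to -1.08) on top of it. Palbociclib gave -0.19 (-0.25 to -0.12) without indisulam, within the noise bound, and -0.62 (-0.71 to -0.53) on top of it. The combination was 2.55-fold below untreated. QARS1 has no mitochondrial counterpart on the list, because glutaminyl-tRNA in mitochondria is made by the GatCAB amidotransferase, whose subunit genes are given below.

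VARS2, the mitochondrial valine enzyme gene (chr6:30914205-30926459, plus strand), had 786 reads untreated, 395 with palbociclib, 643 with indisulam and 354 with the combination. The untreated level of 62.6 CPM was above the 31.1, 38.5 and 24.7 CPM of the treated libraries. Palbociclib gave a log2 ratio of -1.01 (-1.18 to -0.83), indisulam of -0.70 (-0.85 to -0.55) and the combination of -1.34 (-1.52 to -1.16). The palbociclib value stands at the 2-fold line, and it passed it or not with the scaling. The cytosolic valine enzyme gene VARS1 had log2 ratios of -0.38, -0.44 and -0.56 for the same comparisons. In GENCODE release 44, 63.0% of the exon bases of VARS2 are shared with another gene model on the same strand, which the count tables did not list.

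AARS1, the cytosolic alanine enzyme gene (chr16:70251983-70289707, minus strand), had 4546 reads untreated, 2183 with palbociclib, 3706 with indisulam and 2910 with the combination. The level was 362 CPM untreated and 172, 222 and 203 CPM in the treated libraries, lowest with palbociclib alone. The log2 ratio of palbociclib to untreated was -1.07 (-1.15 to -1.0), or 2.1-fold lower and 3.83 times the noise bound. With indisulam it was -0.71 (-0.77 to -0.64), and with the combination -0.84 (-0.90 to -0.77). The combination thus lay above the sum of the single-drug log2 ratios, with a departure of 0.94 (0.84 to 1.05).

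SARS2, the mitochondrial serine enzyme gene (chr19:38915266-38930763, minus strand), had only 30 reads untreated, 12 with palbociclib, 42 with indisulam and 29 with the combination. Its log2 ratio of -1.28 (-2.21 to -0.34) with palbociclib and of 1.04 (0.10 to 1.98) for the combination against palbociclib both rest on the 12 reads of the palbociclib library. The first is 2.04 times and the second 1.67 times the noise bound at this level. Another gene model shares 48.2% of the exon bases of SARS2 on the same strand and was listed at 0 reads in all 4 libraries, so reads in the shared part may have been set aside as ambiguous. The cytosolic serine enzyme gene SARS1 had 2280, 1517, 2761 and 2286 reads, with a log2 ratio of -0.60 (-0.70 to -0.51) with palbociclib.

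GARS1, YARS1 and MARS2 are described next because of their values. GARS1 (chr7:30580533-30634033, plus strand), from which both the cytosolic and the mitochondrial glycine enzyme are made, had 3528 reads untreated, 1850 with palbociclib, 3049 with indisulam and 3135 with both. On the log2 scale it stood at -0.95 (-1.03 to -0.87) with palbociclib and -0.62 (-0.69 to -0.55) with indisulam, but -0.36 (-0.43 to -0.29) with the combination. The level with both drugs, 218 CPM, thus lay between the untreated 281 CPM and the single drugs at 146 and 182 CPM, and the departure from additivity was 1.21 (1.10 to 1.31).

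YARS1 (chr1:32775237-32818031, minus strand), the tyrosine enzyme gene, had 2846, 1449, 3675 and 3070 reads in the untreated, palbociclib, indisulam and combination libraries. At 114 CPM the palbociclib library stood apart from the others, which were at 214 to 227 CPM. The log2 ratio was -0.99 (-1.08 to -0.90) for palbociclib against untreated, close to 2-fold, and 0.90 (0.81 to 0.99) for the combination against palbociclib. Against untreated it was -0.04 with indisulam and -0.08 with the combination, both within the noise bound.

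MARS2, the mitochondrial methionine enzyme gene (chr2:197705369-197708395, plus strand), had 89 reads untreated, 175 with palbociclib, 175 with indisulam and 154 with the combination. All treated libraries were above the untreated one, at 13.8, 10.5 and 10.7 CPM against 7.09 CPM. On the log2 scale palbociclib gave 0.95 (0.59 to 1.32), indisulam 0.56 (0.19 to 0.92) and the combination 0.59 (0.22 to 0.97). The cytosolic gene MARS1 went the other way, from 1892 reads untreated to 1147 under palbociclib, at -0.74 (-0.84 to -0.63) on the log2 scale. The gene for DDIT3, which was also lower with palbociclib, is one of those that together overlap 12.4% of the exon bases of MARS1 on the opposite strand.

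**Figure D4:**
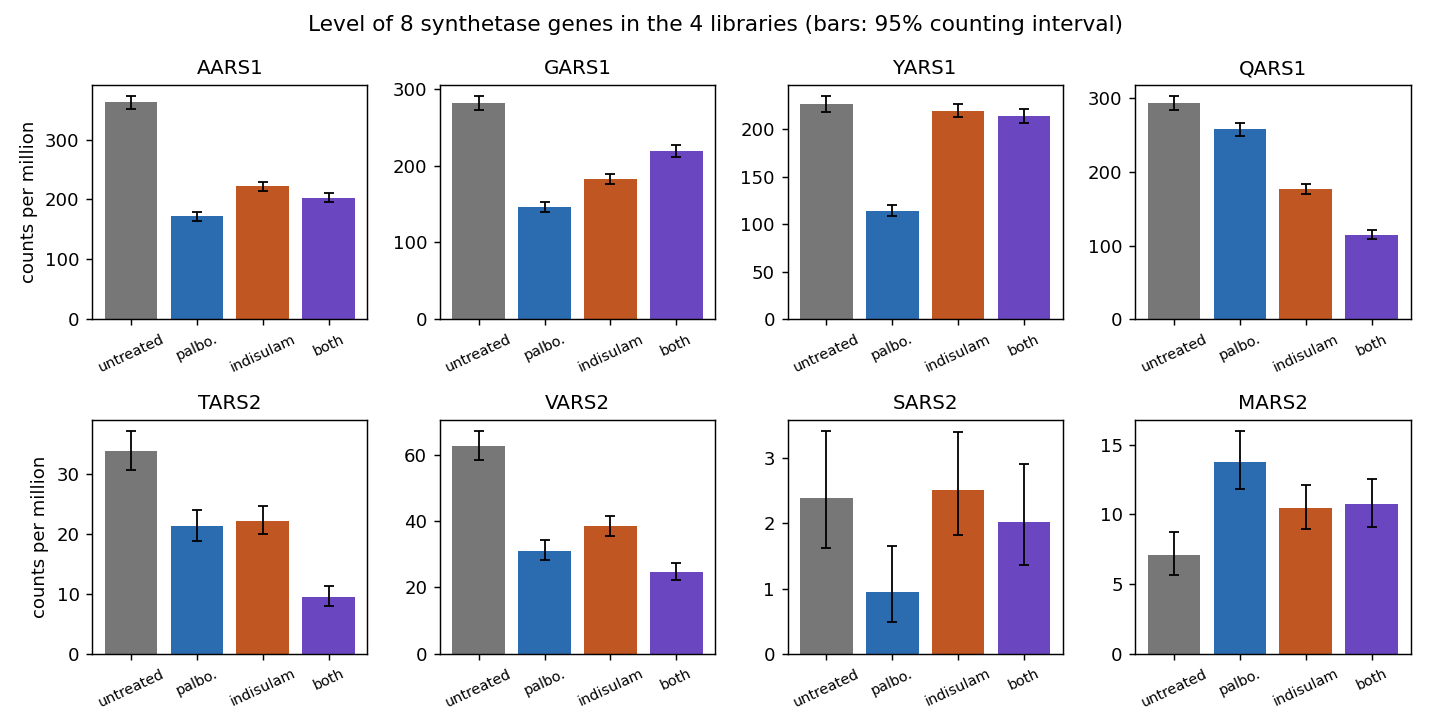
Level of 8 synthetase genes in CPM in the untreated, palbociclib, indisulam and combination libraries, with bars from 0 and 95% counting intervals. AARS1, GARS1 and YARS1 are lowest with palbociclib alone, QARS1 and TARS2 are lowest with both drugs, and MARS2 is lowest in the untreated library.

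TARS1 and WARS1, also described for their values, were at their lowest with palbociclib alone and at their highest with both drugs. TARS1 had 265 CPM untreated, 201 with palbociclib, 327 with indisulam and 383 with the combination. WARS1 had 108, 84.8, 104 and 141 CPM in the same order. The log2 ratio of the combination to palbociclib was 0.93 (0.86 to 0.99) for TARS1 and 0.73 (0.62 to 0.84) for WARS1. For the combination against indisulam it was 0.23 (0.17 to 0.28) and 0.44 (0.35 to 0.53).

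By position in the cell's machinery, the 7 cytosolic genes whose products sit in the multisynthetase complex (EPRS1, IARS1, KARS1, LARS1, MARS1, QARS1 and RARS1) had a median ratio of -0.34 (log2) under palbociclib, and the 12 others of -0.39. For the combination against palbociclib the medians were 0.09 and 0.50. The 18 class I genes had a median of -0.33 and the 16 class II genes of -0.27 with palbociclib, and -0.16 and -0.09 with the combination. Differences between these groupings were smaller than the range within each of them. Among the 13 pairs of compartments, the cytosolic gene had the lower palbociclib ratio in 6 and the higher in 7. The difference ran from -1.69 for methionine to 0.67 for serine.

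The cytosolic genes with the TGATGNAA core in their promoter window had a median ratio of -0.74 (log2) under palbociclib (7 genes), beside -0.34 for the 9 in the table without it. For the combination against palbociclib the medians were 0.58 and 0.23, and for the departure from additivity 0.65 and 0.27. The palbociclib library enters each of these values, and gaps were smaller where it does not. Indisulam alone had medians of -0.25 with the core and -0.09 without it. Both drugs had -0.19 and -0.07 relative to untreated cells, and 0.09 and 0.10 relative to indisulam alone. The ranges overlapped in each case. With palbociclib they ran from -1.07 to -0.08 with the core and from -0.71 to 0.24 without it. YARS1, which had 1 of the lowest palbociclib ratios, was not in the table.

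Of the 10 other genes of tRNA charging, none was called with palbociclib (4.89% of all tested genes lower, 5.85% higher) or indisulam (6.69% and 8.39%). With the combination 1 was called lower, beside 10.5% of all tested genes, and none higher. It was SEPSECS, the enzyme that completes selenocysteinyl-tRNA, with 370, 256, 301 and 211 reads in the untreated, palbociclib, indisulam and combination libraries and a log2 ratio to untreated of -1.0 (-1.24 to -0.76). At 1.5-fold GATC and SEPSECS were lower with the combination, beside 19.4%, and AIMP2 and EEF1E1 higher, beside 23.1%. The list had medians of -0.10 with palbociclib, 0.00 with indisulam and 0.10 for the combination against palbociclib.

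The 7 enzyme genes of the multisynthetase complex were all below 0 with palbociclib, and its 3 scaffold genes were not all on that side. AIMP1 had a log2 ratio of -0.22 (-0.37 to -0.07) and AIMP2 of 0.38 (0.19 to 0.58) with palbociclib. AIMP2 was at 29.9 CPM untreated and 48.6 CPM with the combination, a log2 ratio of 0.70 (0.52 to 0.88). EEF1E1, with 85 reads untreated, 101 with palbociclib, 164 with indisulam and 172 with the combination, had 0.23 (-0.18 to 0.65) with palbociclib and 0.82 (0.44 to 1.19) with the combination. The subunit genes of the GatCAB amidotransferase, named here beside QARS1, had log2 ratios with the combination of 0.09 for QRSL1, 0.02 for GATB and -0.61 for GATC.

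Among 24 genes of the amino acid response that are known targets or partners of ATF4, the log2 ratios spanned a wider range than in the synthetases. With palbociclib 10 were called lower and 1 higher (ATF5), with a median of -0.84, beside 4.89% and 5.85% of all tested genes. For the combination against palbociclib 11 were called higher and none lower, with a median of 0.76, beside 9.56% and 7.38%. With indisulam alone 3 were called lower and 3 higher (ATF3, SLC3A2 and STC2), with a median of -0.19, beside 6.69% and 8.39%. For the combination against untreated 2 were called lower and 4 higher, with a median of -0.16, beside 10.5% and 12.9%. The 4 were ATF3, SLC3A2, SLC7A5 and STC2. ASNS, asparagine synthetase, had 1762 reads untreated, 278 with palbociclib, 981 with indisulam and 784 with both, a log2 ratio of -2.68 (-2.86 to -2.49) for palbociclib. Both drugs against palbociclib gave 1.31 (1.12 to 1.51).

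DDIT3 and TRIB3, which act in the response to prolonged stress, were both at -1.13 with palbociclib, and at 1.29 and 0.67 for the combination against palbociclib. The transcript of ATF4 itself was at -0.58 (-0.64 to -0.52) with palbociclib and at 0.00 (-0.07 to 0.06) for the combination against palbociclib. ATF4 is regulated mainly in translation, which these counts do not measure. The 6 genes of the eIF2 kinases and their partners had a median of -0.08 with palbociclib. None was called at 2-fold in any comparison, beside 3.15% to 12.9% of all tested genes, depending on the comparison and direction. EIF2AK4, the gene of GCN2, had -0.26 with palbociclib and -0.63 with the combination. The latter was lower at 1.5-fold, beside 19.4% of all tested genes.

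**Figure D5:**
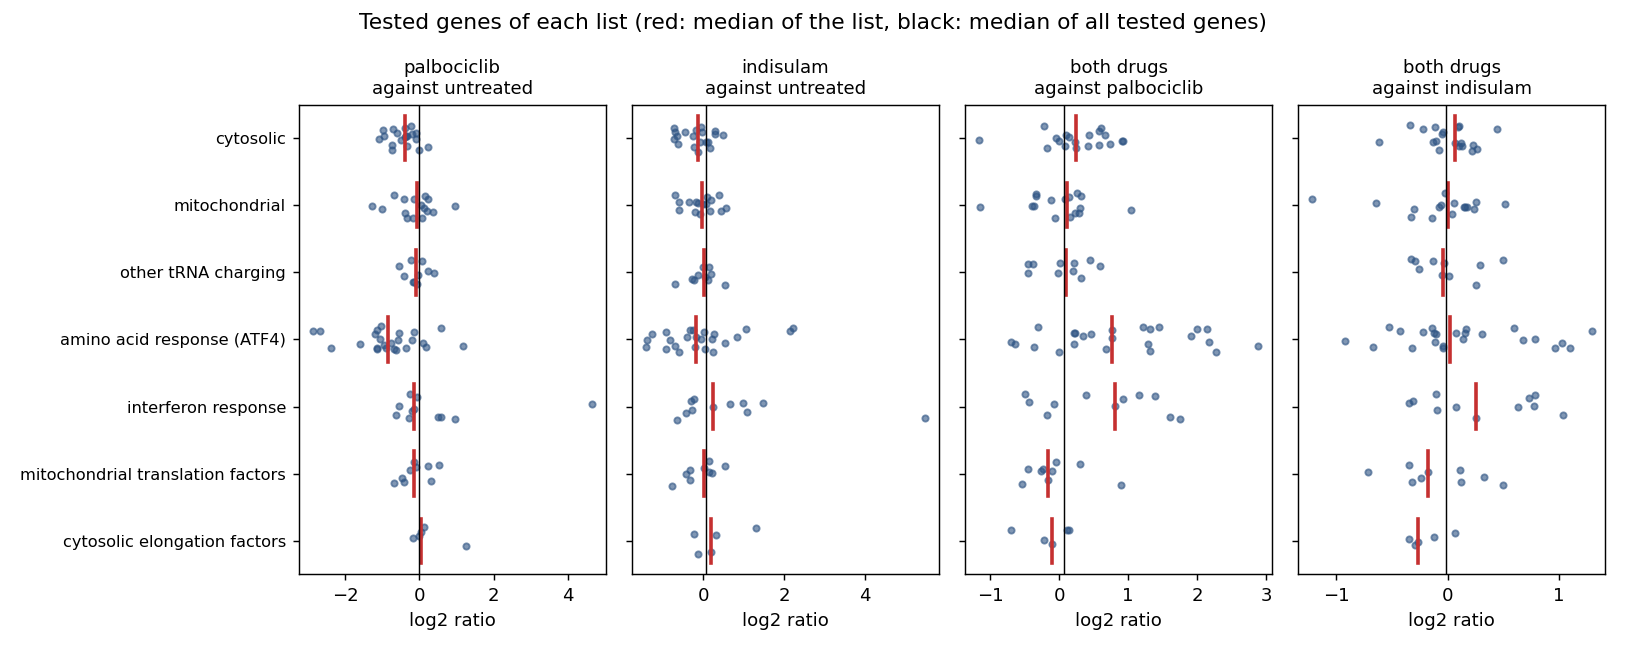
Log2 ratios of the tested genes of 7 lists in 4 comparisons, 1 point a gene, with the median of each list in red and that of all tested genes in black. The cytosolic synthetases and the ATF4 list lie to the left with palbociclib (medians -0.38 and -0.84) and to the right for both drugs against palbociclib (0.24 and 0.76).

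Since WARS1 is known as an interferon-induced gene, the interferon list is set beside it. Of 12 genes 11 were tested. With the combination against untreated 4 were called higher (GBP5, IDO1, IRF1 and ISG15), beside 12.9% of all tested genes. With indisulam there were 3 (IDO1, IRF1 and ISG15), beside 8.39%, and with palbociclib 1 (IDO1), beside 5.85%. None was called lower, but with the combination 4 of the 11 had intervals below 0, and GBP2 at -0.61 and PSMB8 at -0.75 were lower at 1.5-fold. IRF1 had a log2 ratio of 1.34 (1.13 to 1.55) with the combination and GBP1, not called, of 0.86 (0.74 to 0.99). IDO1, which breaks down tryptophan, had 1 read untreated, 47 with palbociclib, 111 with indisulam and 164 with the combination, so its ratio to untreated rests on that 1 read. WARS1 itself had 0.38 (0.28 to 0.48) with the combination and -0.35 (-0.47 to -0.24) with palbociclib.

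Other parts of the translation machinery were counted in the same way. Of 9 mitochondrial translation factors, MTIF2, an initiation factor, was the 1 called, at -1.13 for the combination against untreated, where 10.5% of all tested genes were lower. Of 6 cytosolic elongation factor genes 5 were tested, and EEF1A2 was called higher than untreated in all treated libraries, at 1.26, 1.3 and 1.37, beside 5.85%, 8.39% and 12.9% of all tested genes. EEF1G, a subunit of the exchange factor that every growing cell uses, was listed at 0 reads in all 4 libraries, so its 0 is taken as a product of counting and not as a level. The list medians were -0.16 and 0.05 with palbociclib for the mitochondrial and the cytosolic factors, beside -0.38 for the cytosolic synthetases.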

How the data were processed

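RNA of SUM159 cells was measured in 4 libraries, 1 per condition. The authors deposited unnormalized read counts for each Ensembl gene. The submitters' processing notes name GRCh38, TopHat2 2.1 and HTSeq. The study's methods describe single-end reads of 65 bases for the comparison of gene sets, and paired-end reads for the splicing experiment. The strand setting and annotation release are not given in the sources used here. Tallies of reads in no gene, in several genes or at several places were left out (9.61% to 10.1% of reads).

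Counts were scaled to the library totals, with a pseudocount of 1. Genes with a mean of at least 1 CPM were tested, intervals are 95% Poisson counting intervals, and they cover counting error only, since reads are not independent molecules. No count test was run, since with 1 library per condition a fit of both drugs without an interaction leaves 1 residual degree of freedom. The calculation was tested on simulated data with counting error only, which cannot speak to variation between libraries. Positions, exon lengths and overlaps are from GENCODE release 44. R 4.3.3, edgeR 4.0.16 (scaling factors only), Python 3.11.15 and pandas 2.3.3 were used. Alternatives were TMM, upper-quartile and DESeq2-type factors, a pseudocount of 5, minimums of 5 CPM or 1 read, a 1.5-fold call and the longest transcript as length.

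Full values were given for genes called changed in any comparison, or by 1.5-fold in both estimates of a drug, and for the 3 highest and 3 lowest levels. Named genes of the other lists were ATF4, ASNS, DDIT3, TRIB3, IRF1, GBP1, IDO1, AIMP1 and AIMP2, and called members where under 5. A few genes of these lists are not reported here and were left out of the list counts after the results were seen. Any other gene was named after its values were seen. The members and lists were chosen with earlier results of these data known.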

Additional observations from a re-analysis of the deposited data

Results flagged for a closer look

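For several synthetase genes the counting intervals of a drug's log2 ratio lay on opposite sides of 0 without and with the other drug, and the departure from additivity passed 1.5-fold. For palbociclib this held for 5 of 35 genes beside 4.95% of all tested genes, and for indisulam for 5 of 35 beside 3.77%. IARS1 for both drugs and SARS1 for indisulam also lay on opposite sides of 0, with a departure short of 1.5-fold. With 1 library per condition the difference was not tested. The departure from additivity is given for each, and its spread over all genes was 0.40 at 100 CPM and above and 0.52 from 5 to 20 CPM. For palbociclib, the log2 ratio went from -0.71 to 0.10 for EPRS1 (departure 0.81), from -0.95 to 0.26 for GARS1 (1.21), from -0.74 to 0.09 for MARS1 (0.83), from -0.40 to 0.23 for TARS1 (0.63) and from -0.35 to 0.44 for WARS1 (0.79). For indisulam, it went from -0.71 to 0.24 for AARS1 (0.94), from -0.72 to 0.08 for EPRS1 (0.81), from -0.62 to 0.58 for GARS1 (1.21), from -0.23 to 0.60 for MARS1 (0.83) and from 0.56 to -0.36 for MARS2 (-0.92). Both sides of each change are made of the same 4 libraries, and the cause was not tested. The flags were set with library totals. The second values of EPRS1 for both drugs and MARS1 for palbociclib were 0.08 to 0.10. Their intervals started at 0.01 to 0.04. These and the values of 0.23 to 0.26 for AARS1, GARS1 and TARS1 were within the noise bound of 0.28. A scaling moves all genes of a comparison nearly alike. With TMM factors AARS1 went from 0.24 to 0.14 for the combination against palbociclib, a fall larger than the 0.08 of EPRS1.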

How the results depend on the processing

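No called value changed sign under any alternative. The mitochondrial median near 0 did: for palbociclib it went from -0.06 to 0.03 at a minimum of 5 CPM, and for the combination against indisulam from 0.00 to -0.02 with TMM and -0.01 with DESeq2-type factors. With TMM factors the cytosolic median of the combination moved to -0.28 relative to untreated and to 0.14 relative to palbociclib. No scaling moved the median of all genes by more than 0.1. At 1.5-fold the called genes numbered 11 with palbociclib, 8 with indisulam, 9 with the combination, 8 for the combination against palbociclib, 3 against indisulam and 9 for the departure from additivity. With the longest transcript as length, the median RPKM of the cytosolic genes was 41.95 untreated, 28.65 with palbociclib, 35.85 with indisulam and 38.25 with the combination, and that of the mitochondrial genes 7.99, 7.295, 7.568 and 5.24. The call of SARS2 for the combination against palbociclib was lost with TMM (0.95), upper-quartile (0.99) and DESeq2-type factors (0.97) and a pseudocount of 5 (0.87), and SARS2 was not tested at a minimum of 5 CPM. VARS2 with palbociclib fell just short of 2-fold with upper-quartile factors (-0.996) and a pseudocount of 5 (-1.0). The other 94 group values and 168 single-gene values were counted as unchanged. Single genes kept their side of the threshold, and medians moved by no more than their counting interval. Counts of called genes were equal or differed by at most 1.5 times, as from 3 to 2 for palbociclib with upper-quartile factors. No paired analysis was possible because each condition has 1 library, and none could be left out. Depth limits SARS2 (12 to 42 reads), and without replicates no difference can be set against variation between cultures.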
